A study of Homo sapiens with 2 samples.

Results

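The polyamine genes described here are the 10 genes that make putrescine, spermidine and spermine, break them down, or control these steps through antizyme. They were taken by symbol (ODC1, AMD1, SRM, SMS, OAZ1, OAZ2, AZIN1, SAT1, SMOX and PAOX), and all 10 were found among the 23709 gene symbols measured. The cells were Caco-2, an established human colorectal adenocarcinoma line that can form enterocyte-like layers, grown without any treatment named in the labels. Poly(A) RNA was sequenced from total RNA, called mRNA below, and from complexes of ribosomes with their nascent chains, called RNC-mRNA, a fraction meant to hold mRNAs that are being translated. There is 1 library per group, so no difference below has a replicate check, and no p-value or standard deviation is given. Whether 1 culture gave both preparations is not stated in the labels.

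Polyamines are small positively charged molecules that bind nucleic acids and are needed for growth, and the rapidly renewing gut epithelium is a tissue in which they have long been studied. Ornithine decarboxylase, the product of ODC1, makes putrescine and is the first step of the pathway. S-adenosylmethionine decarboxylase (AMD1) supplies aminopropyl groups, which spermidine synthase (SRM) and spermine synthase (SMS) add to the chain. Antizymes (OAZ1 and OAZ2) bind ornithine decarboxylase and send it to the proteasome, and antizyme inhibitor (AZIN1), an inactive relative of the enzyme, captures antizyme. The acetyltransferase SAT1 and the oxidases SMOX and PAOX run the pathway backwards. Several of these mRNAs are known for control at the level of translation: ribosomes must shift frame to complete antizyme, and short upstream reading frames act on AMD1.

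The antizyme mRNAs carry their frameshift site inside the coding sequence, and it is shown here because the RNC-mRNA fraction holds ribosome-bound copies of these mRNAs without showing whether the ribosomes passed it. The windows below are from GENCODE release 29 transcripts, in the sense direction, with the last codon of the first frame and its stop codon in capitals. The OAZ1 window lies at chr19:2271410-2271475 on the plus strand and the OAZ2 window at chr15:64691483-64691548 on the minus strand, both on GRCh38.
OAZ1: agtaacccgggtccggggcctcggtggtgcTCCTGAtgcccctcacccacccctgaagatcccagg
OAZ2: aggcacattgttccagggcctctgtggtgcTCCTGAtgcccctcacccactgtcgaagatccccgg
The 2 windows are equal at 53 of 66 bases, with a longest shared run of 27 bases across the stop codon. In the transcripts that match the RefSeq records, the annotation skips 1 base and joins the frames, giving 68 codons before and 160 after the shift in OAZ1, and 32 before and 157 after in OAZ2. A ribosome that stops at the capitals therefore leaves most of the coding sequence unread in both mRNAs.

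AMD1 has a short reading frame in its leader, known to hold ribosomes when polyamines are plentiful. It is shown with its start and stop codons in capitals. It begins at base 27 of the GENCODE transcript, has 6 sense codons and ends 289 bases before the main start codon. It lies at chr6:110874796-110874816 on the plus strand of GRCh38.
AMD1 upstream frame: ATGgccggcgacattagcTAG

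The SAT1 values come from a non-coding (NR) record, NR_027783, and not from the protein-coding one. The matching GENCODE transcript has 7 exons. The exon below is number 4, at chrX:23784294-23784403 on the plus strand of GRCh38, and the protein-coding transcript lacks it. The in-frame stop codon it brings is in capitals.
SAT1 extra exon: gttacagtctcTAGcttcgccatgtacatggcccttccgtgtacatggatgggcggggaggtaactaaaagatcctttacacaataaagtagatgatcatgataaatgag
With this exon the reading frame ends after 71 codons, against 171 without it. The other exons are shared in whole or in part, and the way in which reads of shared exons were assigned is not stated. The SAT1 level may therefore hold reads of both forms.

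Depth was 9640364 reads for mRNA and 11083302 reads for RNC-mRNA, totals worked out from the values themselves. Of 13 markers of intestinal epithelium, 11 had at least 1 RPKM (reads divided by transcript length and sequencing depth) in both libraries. KRT20 and LGALS4 did not, with 0.977 and 0.0500 RPKM for KRT20 and 1.87 and 0.776 RPKM for LGALS4. The 9 markers of other cell types summed to 58.2 and 32.4 RPKM, and 3 of them had at least 1 RPKM in both libraries. These were the collagen genes COL1A1 (46.8 and 26.1 RPKM) and COL3A1 (5.38 and 3.86 RPKM) and the endothelial marker PECAM1 (4.12 and 1.58 RPKM). Among the others, the leukocyte marker PTPRC was at 0.363 and 0.0332 RPKM and the haemoglobin gene HBB was listed at 0 in both. The part of these 9 markers in the results was not tested.

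All 10 genes counted as expressed, with a mean of at least 1 RPKM over both libraries, as did 13402 genes in all. OAZ1 was the most abundant at 399 RPKM in mRNA and 419 RPKM in RNC-mRNA, and PAOX the least at 7.21 and 6.47 RPKM. Of the summed RPKM of the 10 genes, OAZ1 alone held 51.9% in mRNA and 43.8% in RNC-mRNA. In mRNA the order was OAZ1, ODC1, SRM, SMS, OAZ2, AMD1, SAT1, AZIN1, SMOX and PAOX. The 95% counting interval of SAT1 (24.5 RPKM) overlapped those of AMD1 (25.4 RPKM) and AZIN1 (21.7 RPKM), and no other neighbours in this order overlapped. In RNC-mRNA AZIN1 (35.9 RPKM) stood above AMD1 (33.6 RPKM) and SAT1 (18.2 RPKM). There the interval of AZIN1 overlapped those of OAZ2 (37.8 RPKM) and AMD1, and that of AMD1 did not reach SAT1.

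**Figure D1:**
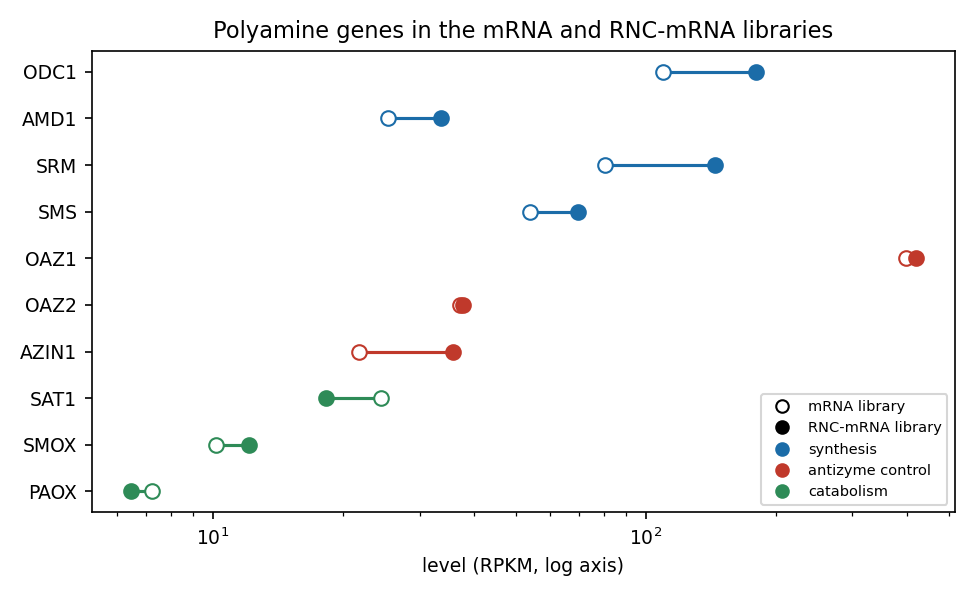
Level of each polyamine gene in RPKM on a log axis, with mRNA as open and RNC-mRNA as filled circles, coloured by role. The 4 synthesis genes and AZIN1 lie further right in RNC-mRNA, OAZ1 and OAZ2 nearly coincide, and SAT1 lies further left.

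The translation ratio used here divides the RNC-mRNA level by the mRNA level, after 0.1 RPKM was added to each. It is given on the log2 scale with the median expressed gene set to 0. The libraries are bulk RNA scaled to their own totals, so the ratio is relative, and the amount of each mRNA per cell was not measured. None of the 10 genes differed from the median by 2-fold, whereas 13.1% of all expressed genes did. The share of expressed genes at least 2-fold above was 1.37%, and at least 2-fold below 11.8%. By direction, 8 of 10 were above the median, against 50% of expressed genes, and the median of the 10 was 0.35. Genes of this abundance tend to lie higher: among the 7886 expressed genes with a mean between 6.84 and 409 RPKM, the range of the 10, the median was 0.10, 59.9% were above 0 and 4.83% differed from 0 by 2-fold. Counting intervals (exact Clopper-Pearson, 95%, counting error only) lay wholly above the median for 7 of the 10 and wholly below for 1, against 29.6% and 30% of expressed genes and 40.4% and 25.1% of the genes in that range.

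The 4 synthesis genes were all above the median. ODC1, the putrescine-forming decarboxylase, had 110 RPKM in mRNA and 180 RPKM in RNC-mRNA. Its ratio was 1.68-fold above the median gene (0.75, counting interval 0.67 to 0.82), and only 3.4% of expressed genes were higher. SRM, which turns putrescine into spermidine, had 80.3 and 144 RPKM. Its ratio was the highest of the 10, 1.84-fold above the median (0.88, interval 0.77 to 0.99), with 2.0% of expressed genes higher. The upper limit of SRM came just short of the 2-fold line. AMD1, which makes the aminopropyl donor, had 25.4 and 33.6 RPKM and a ratio of 0.44 (interval 0.32 to 0.57). SMS, which turns spermidine into spermine, had 53.9 and 69.9 RPKM and a ratio of 0.41 (interval 0.29 to 0.53). AMD1 and SMS were thus above the median by less than ODC1 and SRM, and their intervals did not reach those of that pair. Summed over the 4 genes, the level was 269 RPKM in mRNA and 427 RPKM in RNC-mRNA, a relative ratio of 0.70 (interval 0.65 to 0.76). AMD1 has 4 and SRM has 2 pseudogenes named after them in GENCODE, so how their reads were assigned is uncertain.

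The antizyme genes lay near the median and their inhibitor did not. OAZ1 had 399 and 419 RPKM and a ratio of 0.11 (interval 0.01 to 0.21). Its interval held 0 when the libraries were scaled to the same summed RPKM (lower limit -0.03). OAZ2 had 37.1 and 37.8 RPKM and a ratio of 0.06 (interval -0.15 to 0.27). Both intervals use the fewest whole reads that fit, at lengths of 382 bases for OAZ1 and 958 bases for OAZ2. The fitting lengths nearest the GENCODE transcripts were 1146 and 1916 bases, so both intervals may be too wide. Whether the OAZ1 interval holds 0 may therefore rest on this choice of reads. For both antizymes, between 41.1% and 45.0% of expressed genes had a higher ratio, which places them in the middle of the distribution. AZIN1, the antizyme inhibitor, had 21.7 RPKM in mRNA and 35.9 RPKM in RNC-mRNA. Its ratio was 1.69-fold above the median (0.76, interval 0.60 to 0.93), with 3.2% of expressed genes higher. AZIN1 was therefore beside ODC1 and SRM and apart from the antizymes it captures. In GENCODE, OAZ1, OAZ2 and AZIN1 each share exon sequence with a gene on the opposite strand, and the labels name no strand-preserving step. For OAZ1 that gene, JSRP1, was listed at 0 in both libraries. For OAZ2 and AZIN1 the antisense partner was not listed under its GENCODE symbol among the genes measured, and reads of the 2 strands cannot be told apart. OAZ1 and PAOX also share exon sequence with another annotated gene on their own strand, which leaves their counts uncertain.

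**Figure D2:**
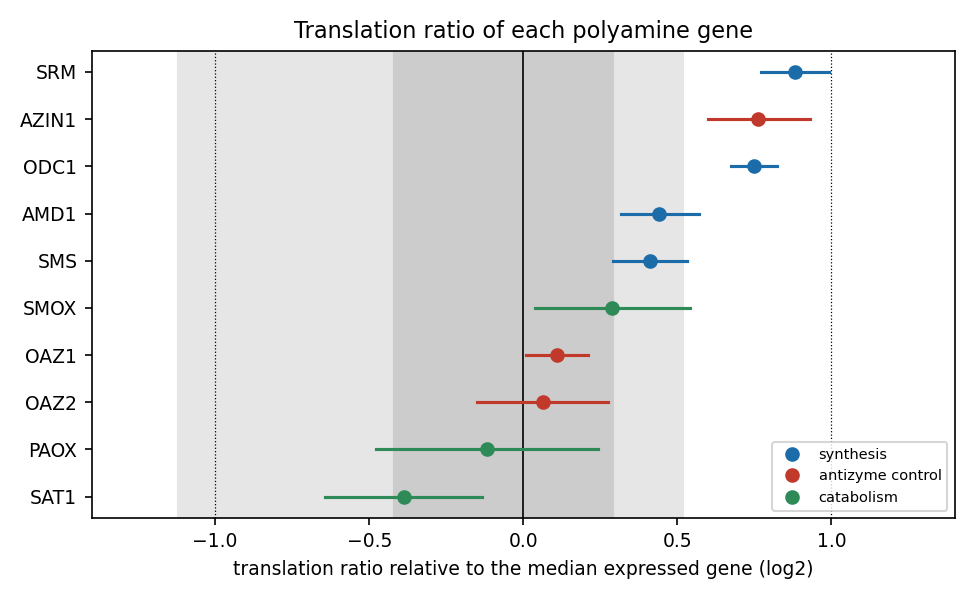
Translation ratio of each polyamine gene relative to the median expressed gene (log2), with 95% counting intervals as bars, coloured by role. Dark and light grey mark the ranges between the 25th and 75th and between the 10th and 90th percentiles of all 13402 expressed genes, and dotted lines mark 2-fold. SRM, AZIN1 and ODC1 lie to the right of the light grey band, whose right edge is at 0.52.

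The catabolic genes went both ways in ratio, and SMOX and PAOX were the least abundant of the 10 in both libraries. In mRNA, 75.9% of expressed genes had a lower level than SAT1, 51.3% than SMOX and 40.4% than PAOX. SAT1, the acetyltransferase that marks polyamines for oxidation or export, had 24.5 RPKM in mRNA and 18.2 RPKM in RNC-mRNA. Its ratio was 1.31-fold below the median (-0.39, interval -0.64 to -0.13), and it was the only one of the 10 whose interval lay wholly below. As shown above, this value belongs to the record that carries the extra exon. SMOX, which oxidises spermine directly to spermidine, had 10.2 and 12.1 RPKM and a ratio of 0.29 (interval 0.04 to 0.54). With the libraries scaled to the same 75th percentile its lower limit was -0.03. PAOX, the peroxisomal oxidase of acetylated polyamines, had 7.21 and 6.47 RPKM and a ratio of -0.12 (interval -0.48 to 0.24), resting on at least 129 and 133 reads. The direction of PAOX was not resolved at this depth. Summed over the 3 genes, the level was 41.9 and 36.8 RPKM (-0.15, interval -0.31 to 0.02). This interval held 0 with centring on the median gene alone: without centring it ran from -0.35 to -0.02, and with the libraries scaled to the same 75th percentile from -0.38 to -0.05.

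**Figure D3:**
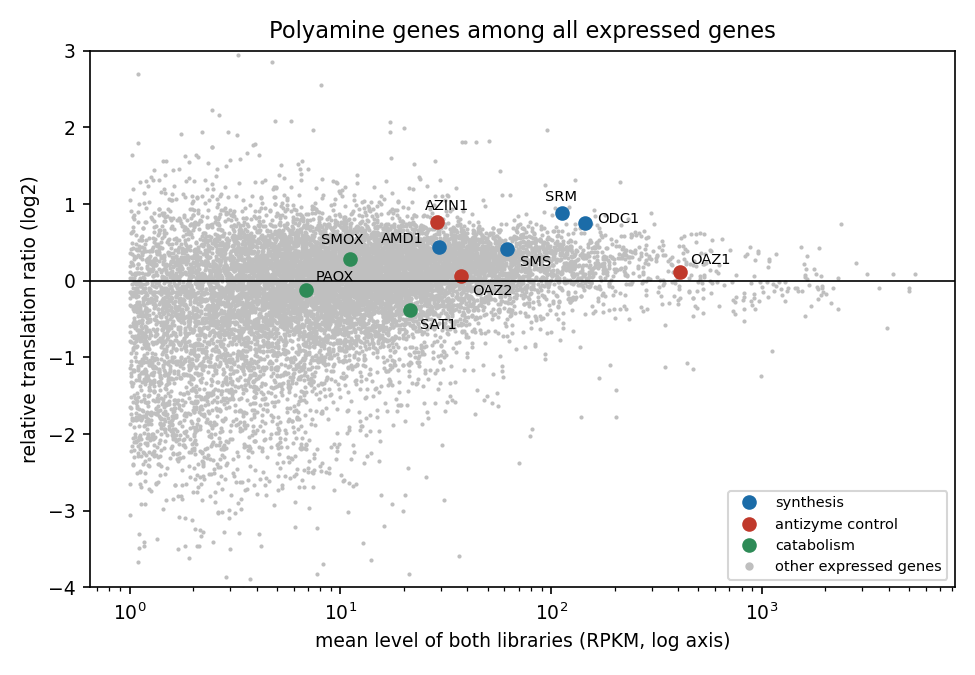
Relative translation ratio (log2) against mean level of both libraries (RPKM, log axis) for all expressed genes in grey and the polyamine genes coloured by role. 79 expressed genes lie outside the plotted range of -4 to 3. The spread of grey points narrows with level, and ODC1 and SRM lie near its upper edge at their abundance.

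Differences between 2 members do not depend on how the libraries were scaled, so they were compared in 10 pairs chosen by role. The interval of the difference excluded 0 in 6 pairs. OAZ1 less ODC1 was -0.64 (interval -0.76 to -0.51), and OAZ2 less ODC1 was -0.69 (interval -0.91 to -0.46). Expressed as levels, OAZ1 mRNA was 3.64 times as abundant as ODC1 mRNA in mRNA and 2.34 times in RNC-mRNA. OAZ2 mRNA was the less abundant of its pair, at 0.338 of the level of ODC1 in mRNA and 0.210 in RNC-mRNA. OAZ1 alone thus outnumbered ODC1, by less in RNC-mRNA. AZIN1 less OAZ1 was 0.65 (interval 0.46 to 0.84), and OAZ1 was 18.4 times as abundant as AZIN1 in mRNA and 11.7 times in RNC-mRNA. Set against both the enzyme and the inhibitor, OAZ1 and OAZ2 together stood at 3.32 times ODC1 and AZIN1 together in mRNA and at 2.12 times in RNC-mRNA.

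Some pairs of related members had differences whose interval held 0. AZIN1 less ODC1, the inhibitor and the enzyme it resembles, was 0.01 (interval -0.17 to 0.19), with AZIN1 at 0.198 of the level of ODC1 in mRNA and 0.200 in RNC-mRNA. OAZ1 less OAZ2 was 0.05 (interval -0.18 to 0.28), with OAZ1 10.8 and 11.1 times as abundant. Differences as large as those limits remain possible for both pairs. Among the decarboxylases, AMD1 less ODC1 was -0.31 (interval -0.45 to -0.16). Among the synthases, SRM less SMS was 0.47 (interval 0.31 to 0.63), and the level of SRM over SMS was 1.49 in mRNA and 2.06 in RNC-mRNA. Among the catabolic enzymes, SAT1 less SMOX was -0.67 (interval -1.02 to -0.32). SMOX less PAOX was 0.40 (interval -0.02 to 0.83), and SAT1 less PAOX was -0.27 (interval -0.70 to 0.16).

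**Figure D4:**
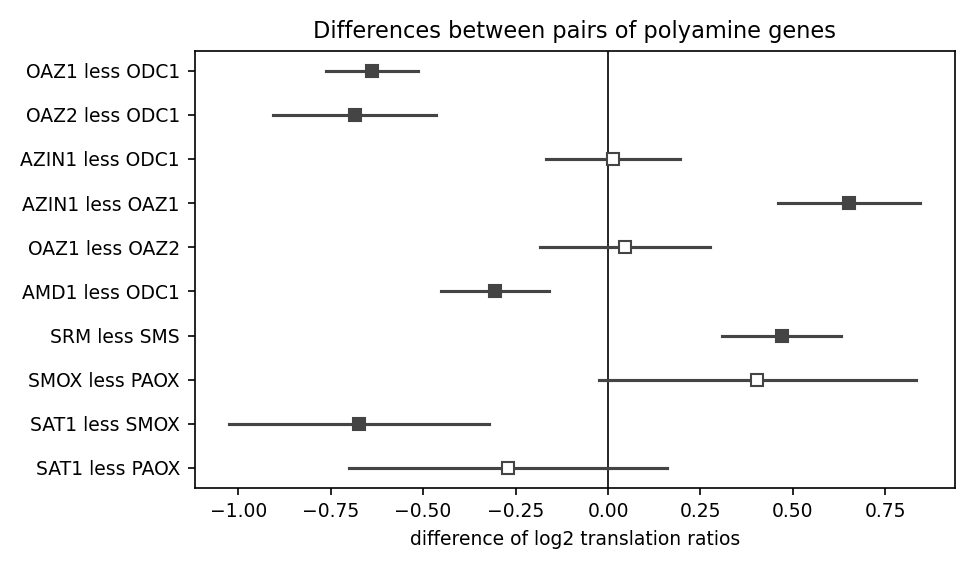
Difference of log2 translation ratios in 10 pairs of polyamine genes, with 95% counting intervals as bars. Filled squares mark the 6 pairs whose interval excludes 0, among them both antizymes against ODC1, and open squares the other 4.

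The leaders of these mRNAs differed widely. In GENCODE transcripts matched by RefSeq record (for SAT1, the protein-coding one), the 5' leader ran from 79 bases in OAZ1 to 766 bases in AZIN1. The median was 229 bases, against 194 bases over 11886 expressed genes with a matched transcript. For ODC1 and AZIN1 these transcripts had 2653 and 2857 bases, whereas the fitting lengths nearest the reference were 2062 and 2174 bases. Their leaders and upstream ATGs may therefore differ from those of the transcripts behind the RPKM values. At least 1 upstream ATG was present in 6 of the 10 (60%), against 51.8% of those genes. AZIN1 had 5 and ODC1, OAZ2 and SAT1 had 2 each, whereas AMD1 and SMS had 1 and SRM, OAZ1, SMOX and PAOX had none. The 3 highest ratios, from the highest down, thus belonged to leaders with 0 (SRM), 5 (AZIN1) and 2 (ODC1) upstream ATGs. Across the expressed genes, the median relative ratio was 0.06 for the 6153 genes with an upstream ATG and 0.01 for the 5733 without.

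Genes that feed the pathway or use its products were read from 5 lists holding 49 genes. Of these, 37 were expressed, 21 lay above the median, and ADI1 alone differed from it by 2-fold, against 13.1% of all expressed genes. The median of the 37 was 0.10, against 0.35 for the 10 polyamine genes. Counting intervals lay wholly above the median gene for 14 of the 37 and wholly below for 13, against 29.6% and 30% of expressed genes. In the abundance range of the 10 polyamine genes, these shares were 40.4% and 25.1%, and 4.83% of genes differed by 2-fold. Not all of the 37 fall in that range. Polyamines serve the hypusine pathway, in which DHPS and DOHH convert a lysine of the translation factor EIF5A using spermidine. EIF5A had 341 RPKM in mRNA and 487 RPKM in RNC-mRNA, a ratio of 0.55 (interval 0.50 to 0.61). DOHH was at 0.39 (interval 0.08 to 0.72) and DHPS at 0.10 (interval -0.09 to 0.30). EIF5A2, the second isoform gene, was at 3.92 and 2.40 RPKM and below the median (-0.65, interval -0.98 to -0.36). EIF5AL1, a close copy of EIF5A, had 1.05 and 0.823 RPKM and did not count as expressed. EIF5A also has 3 named pseudogenes, so reads shared among these copies are uncertain.

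The methionine cycle and the salvage of methylthioadenosine, the by-product of SRM and SMS, had 8 of 13 expressed members above the median (list median 0.24). AHCY, which clears S-adenosylhomocysteine, had 374 and 468 RPKM (0.36, interval 0.32 to 0.40). MAT2A, which makes S-adenosylmethionine, had 59.3 and 48.6 RPKM (-0.25, interval -0.39 to -0.11). The salvage enzymes held both ends of the list. ADI1, a dioxygenase, had 17.3 and 41.9 RPKM (1.31, interval 1.11 to 1.52), and MRI1, an isomerase, had 15.0 and 8.78 RPKM (-0.72, interval -0.94 to -0.52).

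Arginine and ornithine supply had 6 of 10 expressed members above the median (list median 0.07). OAT, the mitochondrial ornithine aminotransferase, was highest, with 89.4 and 145 RPKM (0.74, interval 0.65 to 0.82). The arginine-making enzymes ASS1 (149 and 127 RPKM, -0.19, interval -0.27 to -0.12) and ASL (44.0 and 30.1 RPKM, -0.51, interval -0.65 to -0.36) were below the median. Polyamine transport had 4 of 7 expressed members above it (list median 0.15). ATP13A2, a lysosomal polyamine exporter, was highest, with 12.8 and 23.7 RPKM (0.92, interval 0.77 to 1.09), and the vesicular carrier SLC18B1 lowest, with 8.64 and 6.14 RPKM (-0.45, interval -0.76 to -0.15). The abundant SLC3A2 (92.8 and 100 RPKM) was at 0.15, and the proteoglycan GPC1 (43.8 and 34.9 RPKM) at -0.29.

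Relatives of the 10 genes were either scarce or below the median. SAT2, a relative of SAT1, had 18.9 and 11.7 RPKM (-0.64, interval -0.99 to -0.31). AOC1, the diamine oxidase that degrades putrescine and histamine, had 25.6 and 14.8 RPKM (-0.75, interval -1.02 to -0.49). OAZ3, the testis antizyme, had 3.74 and 3.46 RPKM (-0.07, interval -0.82 to 0.67). AZIN2 (0.333 and 0.0827 RPKM) and SATL1 (0.627 and 0.671 RPKM) did not count as expressed.

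**Figure D5:**
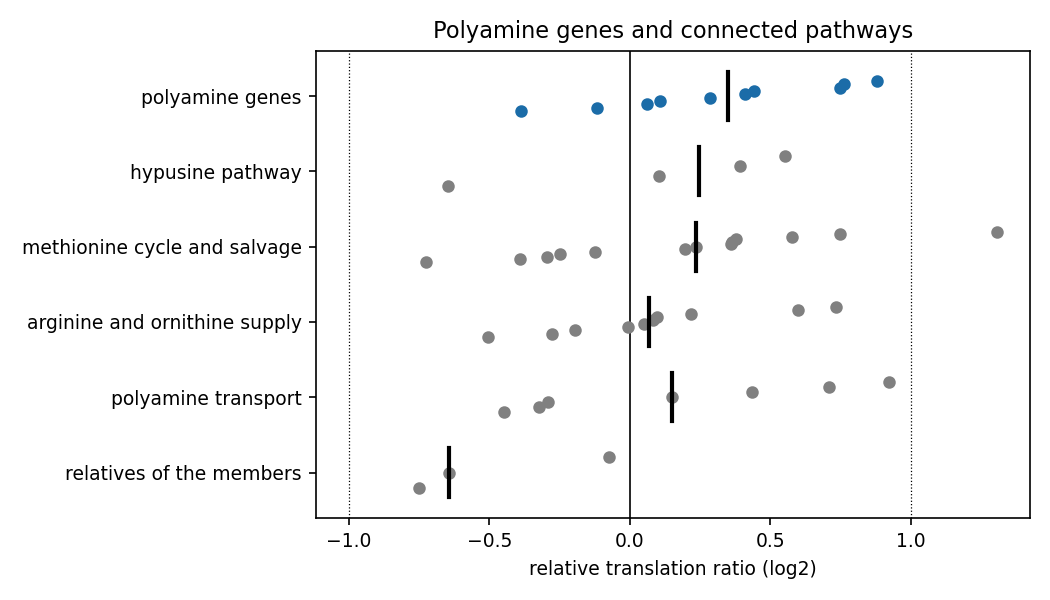
Relative translation ratio (log2) of the 10 polyamine genes in blue and of the expressed genes of 5 connected lists in grey, 1 point per gene. Vertical black bars mark each list's median and dotted lines mark 2-fold. ADI1, in the methionine list, is the single point beyond a 2-fold line.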

How the data were processed

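Caco-2 poly(A) RNA was sequenced in 2 libraries, mRNA and RNC-mRNA. The deposited values are RPKM per gene symbol and RefSeq record, computed by the authors per the file headers, on build hg19 per the submitters' processing notes. The aligner, counting and strand handling are not given in the sources used here. Sequences and lengths came from GENCODE release 29 (GRCh38).

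Each library's total was taken as the number at which the most values fell on whole reads at reference lengths (1481 of 7429 gene lengths for mRNA and 1333 of 7289 for RNC-mRNA, against 656 and 597 at the next best), leaving out its multiples. The fewest whole reads that explain both values of a gene (relative tolerance 2e-07) sum to 86.8% and 86.9% of the totals and gave the counting intervals, so these are wide rather than narrow. Reads at the fitting lengths nearest the reference sum to 110.0% and 110.1%, more than the totals, so the recovered reads are not exact. The reason was not tested. PCR copies are not independent, and intervals cover counting error only. Those of pair differences and sums use a normal approximation. AZIN2 and AOC1 were matched through their older symbols, ADC and ABP1.

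The 10 genes and the lists were chosen with earlier results of these data known. Named from each list are the 2 most abundant genes and the highest and lowest ratio, and all relatives and hypusine genes. A difference of 2-fold served as a rule of size. Alternatives were pseudocounts of 0.01 and 1 RPKM, a mean of at least 5 RPKM, no filter, other scalings, zeros left out, at least 10 reads and NM records alone. Python 3.11.15, numpy 2.4.6, pandas 2.3.3 and scipy 1.17.1 were used.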

Additional observations from a re-analysis of the deposited data

How the results depend on the processing

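No paired analysis was possible because each group has 1 library, and for the same reason no library could be left out. No polyamine gene reached 2-fold under any alternative run. Of 8 genes above the median, 7 remained so with a mean of at least 5 RPKM and with scaling to the 75th percentile, where OAZ2 changed sign. The median of the 10 ran from 0.27 (mean of at least 5 RPKM) to 0.45 (no filter). ODC1 moved beyond its counting interval to 0.66 with a mean of at least 5 RPKM and to 0.85 with no filter, and OAZ1 to 0.21 with no filter. The interval of OAZ1 no longer lay wholly above the median with a mean of at least 5 RPKM, without centring, with either other scaling or with NM records alone, and that of SMOX with a mean of at least 5 RPKM or either other scaling, a check added after seeing the data. ODC1, AMD1, SRM, SMS and AZIN1 kept theirs above in each of these settings. The median of the relatives moved from -0.64 to -0.78 with a mean of at least 5 RPKM. With at least 10 recovered reads it was -0.35, and that of polyamine transport changed sign, from 0.15 to -0.07. The median of arginine and ornithine supply, 0.07, was -0.03 with a mean of at least 5 RPKM. With scaling to the 75th percentile it was -0.001. Over all expressed genes, 184 lay at least 2-fold above and 1576 below, against 102 and 1046 with a pseudocount of 1 RPKM, 62 and 544 with a mean of at least 5 RPKM, and 599 and 3040 with no filter. The pair differences moved by less than their counting intervals. With scaling to the 75th percentile the synthesis sum moved beyond its interval, from 0.70 to 0.63, and the interval of the antizyme control sum held 0 (-0.01 to 0.16). The catabolic sum lay wholly below 0 without centring, an alternative added after seeing the data, and with either other scaling. Few reads limit PAOX (129 and 133) and OAZ3 (32 and 34), whose intervals span the median. The interval of OAZ2 spans it too, at a ratio of 0.06 and with the fewest reads that fit.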
